A study of Mus musculus with 4 samples.

Results

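The kappa light-chain V genes (Igkv) of λ-MYC lymphomas were followed gene by gene in 4 RNA-seq libraries. The members were all genes that GENCODE M21 types as immunoglobulin V genes and whose symbol begins with Igkv. There were 100 of them among the 34866 genes of the expression table, in 20 families, and 60 Igkv pseudogenes were kept apart. A symbol such as Igkv1-135 gives the family and then the order along the locus counted from the J segments, and all 99 neighboring pairs of genes lay in the order of their symbols on GRCm38. The measure was the share of each gene in the summed Igkv TPM of its library. TPM is a transcript abundance scaled to transcript length and to a fixed total per library, so levels of different genes can be set side by side.

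The libraries came from the spleens of 2 λ-MYC Tom+/ki mice, 1 with tumor #1 and 1 with tumor #2. All cells carried the same 3 alleles, λ-MYC+/TG (a MYC transgene under λ light chain regulatory sequences), a heterozygous knock-in of Cre and R26tdTom+/ki (a Tomato reporter that Cre switches on). From each spleen, B220+ IgM+ Tom+ cells (in which, or in an ancestor of which, Cre had been active) and B220+ IgM+ Tom- cells were sorted, which gave 1 library per sort and tumor, and no treatment or age is given in the labels. Each tumor was 1 mouse, so a difference between tumors and a difference between mice cannot be told apart, and the Tom- cells came from the same diseased spleens and were not healthy B cells.

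A kappa light chain gene is assembled when the RAG recombinase joins 1 of many V genes to 1 of a few J segments that lie before the constant gene Igkc. V genes in the same orientation as the J segments join by deletion of the DNA between them, and V genes in the opposite orientation join by inversion. Since a B cell usually expresses a single light chain, a mixed B cell population transcribes many V genes. The progeny of 1 cell transcribe mainly the V gene or genes that cell had joined. The number of clones in a tumor was not tested. The λ locus is the alternative source of light chains and can be rearranged after a failed or self-reactive kappa chain.

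The germline ends of the V genes that led each tumor are given first, because 5 genes made up nearly all Igkv transcripts in 3 of the 4 libraries. The sequences are from GENCODE M21 transcripts on GRCm38, run 5′ to 3′ along the transcript and stop at the end of the annotated V gene. Capitals mark the bases from the codon of the conserved cysteine onwards, which is the germline V part of the junction, that is the cysteine itself and the start of the third complementarity-determining region after it. All 5 genes lie on the plus strand of chromosome 6, Igkv1-135 at chr6:67609713-67610508, Igkv11-125 at chr6:67913573-67914052, Igkv16-104 at chr6:68425575-68426072, Igkv15-103 at chr6:68437440-68437925 and Igkv3-12 at chr6:70518250-70518849. The last 180 bases of each are shown.
Igkv11-125: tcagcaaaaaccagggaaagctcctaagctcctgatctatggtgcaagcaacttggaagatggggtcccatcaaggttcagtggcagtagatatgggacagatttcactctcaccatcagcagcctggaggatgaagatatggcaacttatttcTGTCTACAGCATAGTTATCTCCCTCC
Igkv3-12: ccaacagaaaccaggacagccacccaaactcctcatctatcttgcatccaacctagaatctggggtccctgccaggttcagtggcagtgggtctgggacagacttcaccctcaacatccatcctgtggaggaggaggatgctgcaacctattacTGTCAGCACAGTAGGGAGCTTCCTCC
Igkv1-135: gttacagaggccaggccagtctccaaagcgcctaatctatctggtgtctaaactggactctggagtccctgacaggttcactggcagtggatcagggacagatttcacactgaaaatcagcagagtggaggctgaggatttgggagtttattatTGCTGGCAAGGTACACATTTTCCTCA
Igkv15-103: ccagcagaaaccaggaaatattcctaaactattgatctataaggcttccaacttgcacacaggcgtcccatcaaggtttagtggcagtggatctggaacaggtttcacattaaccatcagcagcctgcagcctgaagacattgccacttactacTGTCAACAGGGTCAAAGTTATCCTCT
Igkv16-104: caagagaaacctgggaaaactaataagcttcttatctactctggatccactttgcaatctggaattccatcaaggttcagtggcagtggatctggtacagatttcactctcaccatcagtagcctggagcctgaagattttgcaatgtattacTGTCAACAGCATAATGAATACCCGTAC

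A second set of V genes was seen mainly or only in the Tom+ cells of tumor #2, and the last 60 bases of 7 of them are shown for comparison with the leading genes. All 7 lie on the minus strand of chromosome 6, Igkv10-96 at chr6:68631963-68632442, Igkv4-63 at chr6:69377944-69378472, Igkv5-43 at chr6:69823355-69823943, Igkv5-39 at chr6:69900424-69900977, Igkv8-27 at chr6:70171809-70172270, Igkv6-23 at chr6:70260409-70260955 and Igkv6-15 at chr6:70406469-70406992. Capitals again start at the cysteine codon.
Igkv4-63: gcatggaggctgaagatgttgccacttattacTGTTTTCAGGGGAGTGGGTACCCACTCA
Igkv8-27: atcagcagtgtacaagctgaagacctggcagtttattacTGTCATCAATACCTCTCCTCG
Igkv10-96: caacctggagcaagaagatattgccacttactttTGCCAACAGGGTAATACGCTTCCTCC
Igkv6-23: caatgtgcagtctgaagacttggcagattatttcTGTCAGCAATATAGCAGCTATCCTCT
Igkv6-15: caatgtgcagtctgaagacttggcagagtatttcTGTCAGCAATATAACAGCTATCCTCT
Igkv5-43: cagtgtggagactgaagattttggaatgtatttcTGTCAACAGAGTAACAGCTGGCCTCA
Igkv5-39: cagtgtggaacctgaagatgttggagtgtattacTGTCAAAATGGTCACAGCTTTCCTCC

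The sorted cells had the transcripts of B cells. All 8 B cell markers were above 0 in every library, and their summed level was 2454 TPM in Tom- and 2295 TPM in Tom+ cells of tumor #1, and 5072 TPM in Tom- and 5948 TPM in Tom+ cells of tumor #2. Markers of other cells were low, with summed levels of 5.74 to 18.9 TPM for 7 T cell genes, 0.519 to 8.66 TPM for 6 myeloid genes and 0.0963 to 19.2 TPM for 4 erythroid genes. The 6 germinal center genes summed to 1.47 to 2.83 TPM. The number of reads behind a TPM value is unknown, so a gene with TPM 0 is called listed at 0 and no detection limit is given. In bulk libraries, fewer cells that use a V gene and less RNA per cell cannot be told apart.

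Tumor #1 was carried by a pair of V genes at nearly equal levels in both sorts. Igkv11-125, the only member of its family, was at 3705 TPM in Tom- and 3301 TPM in Tom+ cells, and Igkv3-12, one of 9 genes of family 3, was at 3727 TPM in Tom- and 3149 TPM in Tom+ cells. Igkv11-125 therefore held 49.5% of Igkv TPM in Tom- and 50.4% in Tom+ cells (50.0% ± 0.667, SD, n = 2 libraries of 1 tumor). Igkv3-12 held 49.8% in Tom- and 48.1% in Tom+ cells. Together they took 99.3% and 98.6%, and the level of Igkv3-12 was 1.01 times that of Igkv11-125 in Tom- and 0.954 times in Tom+ cells. The same pair was nearly silent in tumor #2, where Igkv11-125 was at 2.28 TPM in Tom- cells and listed at 0 in Tom+ cells, and Igkv3-12 was at 2.88 TPM in Tom- cells and listed at 0 in Tom+ cells.

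Tumor #2 used other genes. Igkv1-135, one of 10 genes of family 1, was at 2872 TPM in Tom- and 3213 TPM in Tom+ cells and was listed at 0 in both libraries of tumor #1. Its share was 58.4% in Tom- but 32.5% in Tom+ cells (45.5% ± 18.3, SD, n = 2 libraries of 1 tumor), so the share was lower in the library with the higher TPM. Igkv15-103 was at 1408 TPM in Tom- and 1814 TPM in Tom+ cells, which was 28.6% and 18.3% of Igkv TPM. Its neighbor Igkv16-104 was at 358 TPM in Tom- and 291 TPM in Tom+ cells, or 7.29% and 2.94%. These neighbors are the only members of their families, lie 11367 bases apart, and stood at 0.254 times (Tom-) and 0.160 times (Tom+) as much Igkv16-104 as Igkv15-103 TPM. In tumor #1 neither exceeded 0.526 TPM. All 5 leading genes are on the plus strand, as are 38 of the 100 Igkv genes, and the other 62 are on the minus strand.

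**Figure D1:**
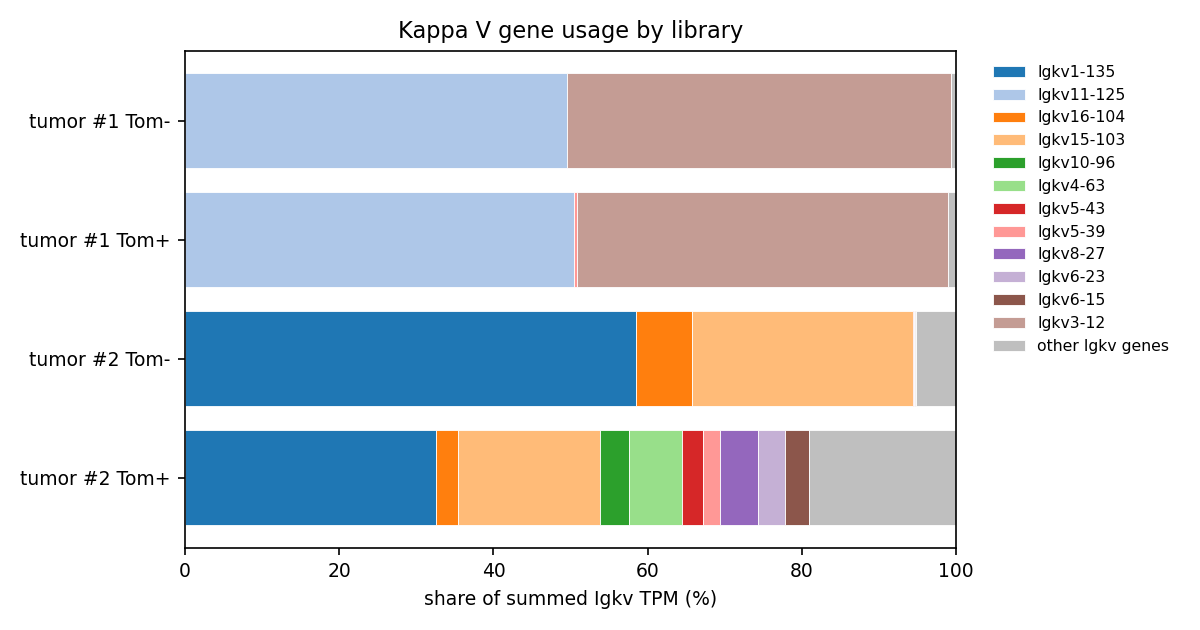
Stacked shares of summed Igkv TPM (percent) in the Tom- and Tom+ libraries of tumors #1 and #2, with the 5 leading genes and the 7 genes whose ends are printed above in colors of their own and the remaining Igkv genes in gray. Igkv11-125 and Igkv3-12 fill both bars of tumor #1, while all genes outside the 5 leading ones take 5.53% of the Tom- bar and 46.2% of the Tom+ bar of tumor #2.

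How far reads could be mistaken between V genes was checked on the annotated sequences, since the reads were 60 bases long. Igkv11-125, Igkv15-103 and Igkv16-104 shared no stretch of 60 bases with another gene. Igkv1-135 shared 26.3% of its 60-base stretches, and its closest relative, Igkv1-133, with 96.1% identity over the last 280 bases, was listed at 0 in tumor #1 and was at 4.47 TPM in Tom- and 19.5 TPM in Tom+ cells of tumor #2. Igkv3-12 shared 47.0%, and its closest relative, Igkv3-7 (96.4% identity), was at 6.26 TPM in Tom- and 24.3 TPM in Tom+ cells of tumor #1. Of all 100 genes, 70 shared at least 1 such stretch with another gene and 7 shared most of theirs, so low values of close relatives are uncertain. Igkv13-84 and Igkv13-85 were listed at equal TPM in every library, at most 1.21 TPM.

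The number of V genes in use differed between the libraries. Over the whole table, 19595 of 34866 genes were above 0 in at least 1 library, and counts of all genes per library were not made. Of 100 Igkv genes, 22 were above 0 in Tom- and 18 in Tom+ cells of tumor #1, 29 in Tom- and 44 in Tom+ cells of tumor #2, and 42 were listed at 0 throughout. Only Igkv17-127, Igkv14-111 and Igkv1-110 were above 0 in all 4 libraries. A share of at least 1% was reached by 2 genes in each library of tumor #1, by 4 in Tom- and by 18 in Tom+ cells of tumor #2. The effective number of genes (the inverse Simpson index, which is 1 when a single gene makes all transcripts) was 2.03 in Tom- and 2.06 in Tom+ cells of tumor #1, and 2.33 in Tom- and 6.49 in Tom+ cells of tumor #2. The Tom+ library of tumor #2 thus stood apart from the other 3. The difference between Tom+ and Tom- cells was 0.0294 in tumor #1 and 4.16 in tumor #2, or 2.09 ± 2.92 (SD, n = 2 tumors), which is less than its spread. With 2 pairs, an exact permutation test cannot go below p = 0.5.

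**Figure D2:**
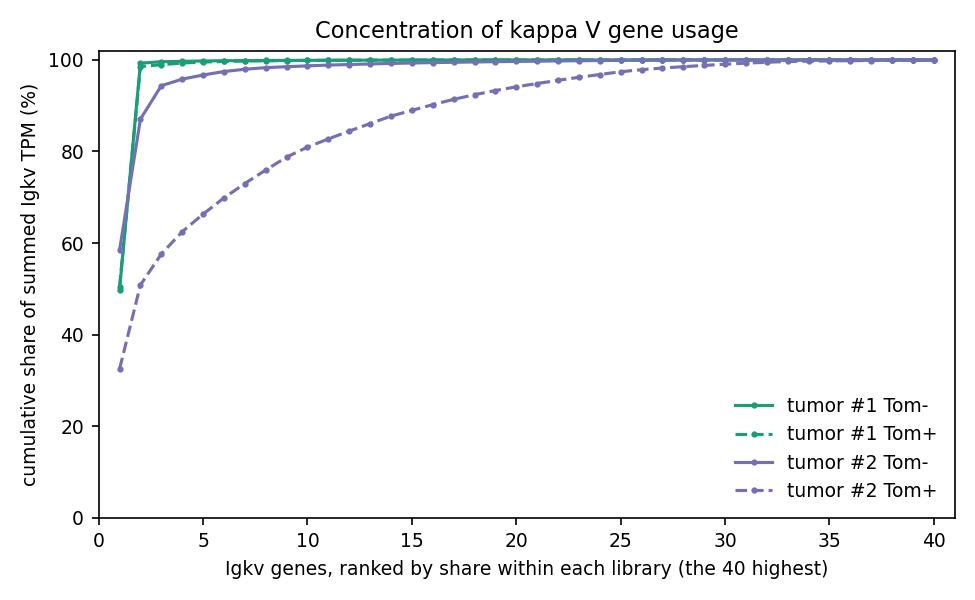
Cumulative share of summed Igkv TPM (percent) against the number of genes counted from the highest share down, 1 line per library. The top 2 genes reach 99.3% (Tom-) and 98.6% (Tom+) for tumor #1 and 87.1% for Tom- cells of tumor #2, but 50.8% for Tom+ cells of tumor #2, where 10 genes reach 81.0%.

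In tumor #2 the Tom+ cells had 9889 TPM of Igkv transcripts against 4915 TPM in the Tom- cells, a ratio of 2.01, whereas tumor #1 had 6544 TPM in Tom+ and 7485 TPM in Tom- cells, a ratio of 0.874. The rise in tumor #2 lay mostly outside the leading genes. The summed TPM of the leading genes of tumor #2 was 4638 in Tom- and 5318 in Tom+ cells, 1.15 times as much, while the 95 genes outside the 5 leading genes went from 272 to 4570 TPM, 16.8 times as much. In tumor #1 the same 95 genes were at 52.4 TPM in Tom- and 94.2 TPM in Tom+ cells, 1.8 times as much, which was 0.700% and 1.44% of Igkv TPM.

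The genes that made up this rise were spread over many families. Family 4, the largest with 26 genes, was listed at 0 in the 3 other libraries and had 9 genes above 0 and 9.02% of Igkv TPM in Tom+ cells of tumor #2. Its main member was Igkv4-63, at 670 TPM. Family 8 went from 0% in Tom- to 8.65% in Tom+ cells of tumor #2, led by Igkv8-27, which was at 481 TPM there and listed at 0 in the other 3 libraries, and by Igkv8-28 at 177 TPM. Family 6 went from 0.296% to 8.33%. Its gene Igkv6-23 was at 2.10 TPM in Tom- cells of tumor #1, listed at 0 in Tom+ cells of tumor #1, and at 9.32 TPM in Tom- and 351 TPM in Tom+ cells of tumor #2. Igkv6-15 had 1.28 TPM in the Tom- and 0 in the Tom+ library of tumor #1, and 1.89 TPM and 311 TPM in the corresponding libraries of tumor #2. Both genes were thus far higher in 1 library than in the other 3.

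Family 5 held 0.124% in Tom- and 6.65% in Tom+ cells of tumor #2. Igkv5-43 was listed at 0 in tumor #1 and was at 6.08 TPM in Tom- and 279 TPM in Tom+ cells of tumor #2. Igkv5-39 was at 1.28 TPM in Tom- and 26.2 TPM in Tom+ cells of tumor #1, where it was the third gene in rank with 0.400%, and was listed at 0 in Tom- and at 216 TPM in Tom+ cells of tumor #2. It was higher in Tom+ cells of both tumors. Igkv10-96 was at 379 TPM in Tom+ cells of tumor #2 and listed at 0 elsewhere, and Igkv19-93 had 0.662 TPM (Tom-) and 2.98 TPM (Tom+) in tumor #1, against 0 (Tom-) and 160 TPM (Tom+) in tumor #2.

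In tumor #2, 20 genes were above 0 in both sorts, 24 in Tom+ cells only and 9 in Tom- cells only. The matching counts over all genes were not made, and the part of read depth in these counts was not tested. The 24 genes seen in Tom+ cells only ran from 0.968 to 670 TPM with a median of 65.7 TPM, and 10 of them reached 100 TPM. The 9 genes seen in Tom- cells only ran from 0.739 to 6.15 TPM. In tumor #1, 6 genes were seen in Tom+ cells only, with at most 2.39 TPM, and 10 in Tom- cells only, with at most 2.10 TPM. Of the 24 genes, 17 were listed at 0 in both libraries of tumor #1.

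The genes were also followed by orientation and place. Of the 24 genes of tumor #2 above 0 in Tom+ cells only, 21 lie on the minus strand and 3 on the plus strand. In Tom- cells of tumor #2, 7 of the 62 minus-strand genes and 22 of the 38 plus-strand genes were above 0. Most genes that could be above 0 in Tom+ cells only were therefore minus-strand genes already. Minus-strand genes held 0.0913% of Igkv TPM in Tom- and 0.50% in Tom+ cells of tumor #1, and 1.38% in Tom- and 38.4% in Tom+ cells of tumor #2. Among the 95 genes outside the leading 5, their share was 13.0% (Tom-) and 34.7% (Tom+) in tumor #1 and 24.9% (Tom-) and 83.1% (Tom+) in tumor #2. In tumor #1 this rise came from Igkv5-39, and without it the minus-strand share was 10.9% in Tom- and 9.61% in Tom+ cells of tumor #1, and 24.9% and 82.3% in tumor #2. The number of minus-strand genes above 0 was 7 in Tom- and 4 in Tom+ cells of tumor #1, and 7 in Tom- and 26 in Tom+ cells of tumor #2.

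Counted from the J segments, the locus runs from 18.4 kb (Igkv3-1) to 3166 kb (Igkv2-137), and its genes were divided by order into 33 proximal, 33 middle and 34 distal ones. Tumor #1 was split between both ends, with 50.0% of Igkv TPM in proximal and 50.0% in distal genes of Tom- cells and 48.7% and 50.9% in those of Tom+ cells. Tom- cells of tumor #2 had 99.3% in distal genes. Tom+ cells of tumor #2 had 17.9% in proximal, 16.3% in middle and 65.8% in distal genes. The middle genes, all but silent in the other 3 libraries at 0.0257% to 0.400%, had 13 members above 0 there, against 1 to 3 elsewhere.

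**Figure D3:**
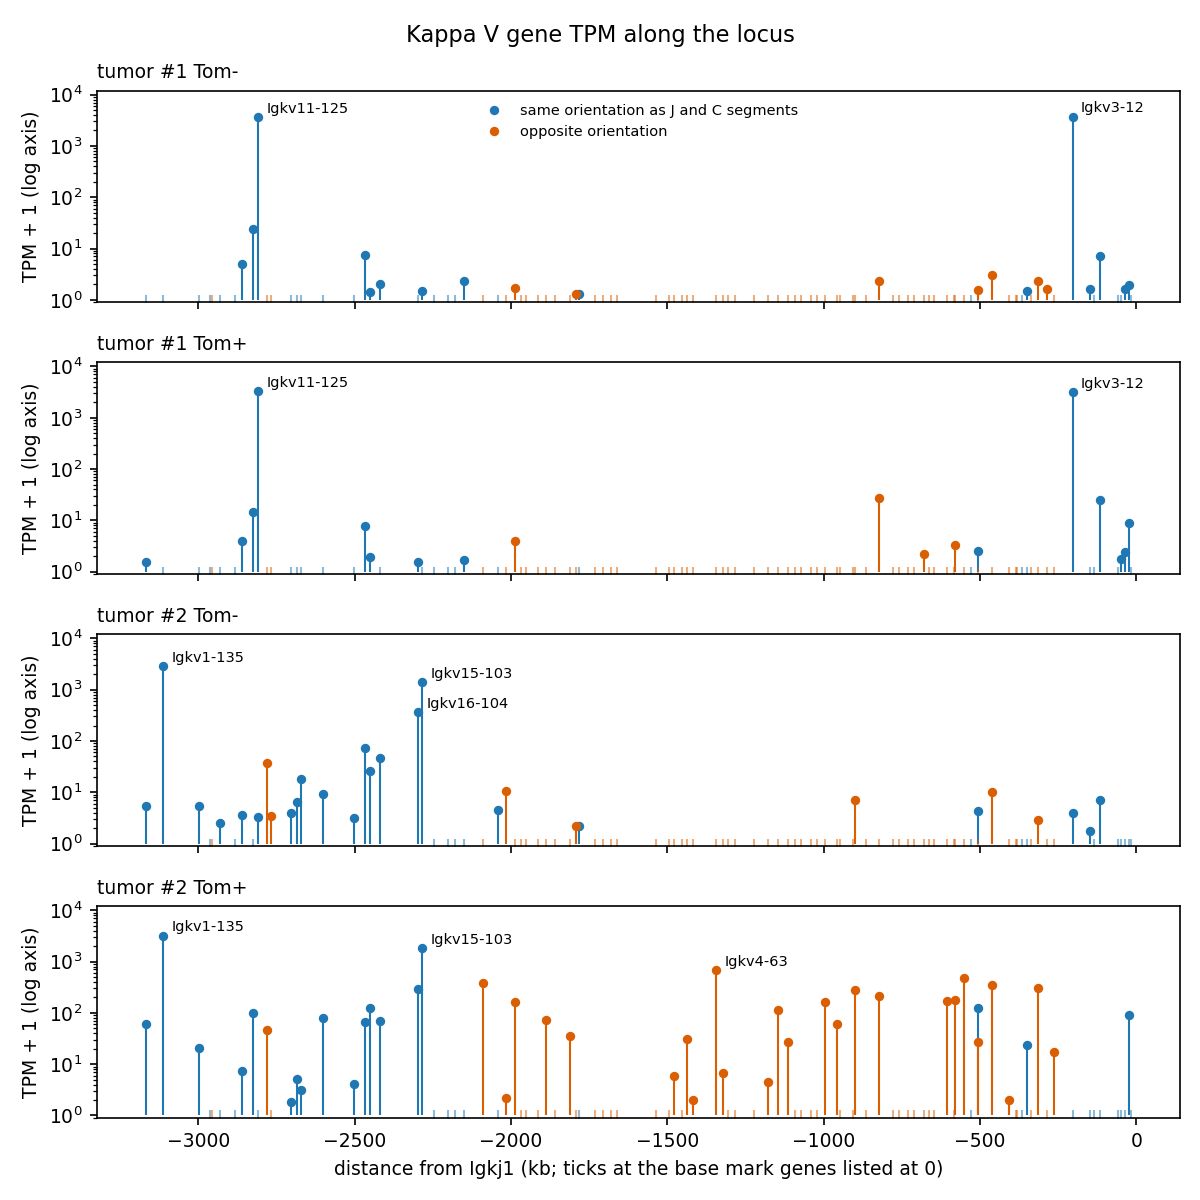
TPM + 1 of each Igkv gene on a log axis against its distance in kb from Igkj1, 1 panel per library, in blue for genes in the orientation of the J segments and in orange for the opposite orientation, with ticks at the base for genes listed at 0. In Tom+ cells of tumor #2, 13 middle genes and 26 minus-strand genes are above 0, which fills the part of the locus that is almost empty in the other 3 panels.

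The genes at the ends of the locus were not among the leading ones, apart from Igkv1-135, the second farthest from the J segments. Igkv3-1, the closest, was listed at 0 in all 4 libraries. Igkv3-2, the next, was at 0.976 TPM in Tom- and 7.77 TPM in Tom+ cells of tumor #1 and at 0 in Tom- and 89.8 TPM in Tom+ cells of tumor #2. Igkv2-137, the farthest, had 0 (Tom-) and 0.539 TPM (Tom+) in tumor #1, against 4.39 TPM (Tom-) and 60.4 TPM (Tom+) in tumor #2. Between Igkv1-135 and Igkv15-103 lie 17 Igkv genes that were not leading, and 13 of them in Tom- and 12 in Tom+ cells of tumor #2 were above 0, against 5 and 4 in tumor #1. Along the whole locus, 29 Igkv genes (Tom-) and 44 (Tom+) were above 0 in tumor #2, against 22 and 18 in tumor #1. The matching counts over all genes were not made.

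Igkv genes were then tested for Tom+ against Tom- with limma on log2(TPM + 1), with the tumor as a block and Benjamini-Hochberg adjustment over 11339 genes. Only 27 of the 100 Igkv genes reached 1 TPM in at least 2 libraries and were tested, which left out Igkv4-63, Igkv8-27 and Igkv10-96. None of the 27 passed an adjusted p of 0.05 (smallest adjusted p = 0.936 by limma), and neither did any other gene, so the share called was 0% of all genes. At an unadjusted p under 0.05, 3 Igkv genes (11.1%) were called, all higher in Tom+ cells, against 4.67% of all genes in either direction and 2.04% higher. They were Igkv5-39 with a log2 fold change of 5.67 (SE 1.18), Igkv3-2 with 4.33 (SE 1.23) and Igkv6-25 with 3.09 (SE 0.99), each with an adjusted p of 0.936 by limma. Igkv3-2 was under 1 TPM in the Tom- libraries of both tumors (0.976 TPM and 0) and passed the filter through the Tom+ libraries alone (7.77 and 89.8 TPM). Its direction was therefore partly fixed by the filter. Without the filter the count was 3 of 58 Igkv genes, against 638 of 19595 of all genes. Igkv6-25 was named after its values were seen and had 0 (Tom-) and 1.55 TPM (Tom+) in tumor #1, against 3.34 TPM (Tom-) and 123 TPM (Tom+) in tumor #2. These p-values rest on the spread between 2 tumors, moderated by a variance trend over all tested genes. The pseudocount of 1 shrinks the log2 changes of low genes within a tumor.

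The fitted value of a leading gene averages the tumor it led with one where it was almost silent, so its values within its own tumor are given too. In tumor #1 the log2 difference between Tom+ and Tom- cells was -0.17 for Igkv11-125 and -0.24 for Igkv3-12, and in tumor #2 it was 0.16 for Igkv1-135, 0.37 for Igkv15-103 and -0.30 for Igkv16-104. Over both tumors Igkv1-135 had a log2 fold change of 0.081 (SE 0.14), Igkv15-103 of -0.11, Igkv16-104 of 0.16, Igkv11-125 of -0.94 (SE 0.45) and Igkv3-12 of -1.10 (SE 0.49). Except for Igkv1-135 these depend on the pseudocount, since with 0.1 in place of 1 they were -1.11 for Igkv15-103, 1.17 for Igkv16-104, -2.37 for Igkv11-125 and -2.57 for Igkv3-12.

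Of the 27 tested genes, 7 were higher in Tom+ cells of both tumors, against 21.6% of all genes, and 2 were lower in both, against 29.5%. Another 9 were listed at 0 in both libraries of tumor #1 and could share no direction. Of the 18 that moved in both tumors, 9 had the same sign (50%), near the 51.9% of all genes that moved in both and the 51.2% of all genes tested. The median log2 fold change of the 27 genes was 0.32 (0 in tumor #1 and 1.02 in tumor #2), and that of all tested genes was -0.033. In tumor #2, 14 of the 27 genes were higher in Tom+ cells by over 1 on the log2 scale and 5 were lower, against 4.52% and 5.05% of all genes. In tumor #1, 6 were higher and 3 lower, against 3.37% and 3.03% of all genes. These counts cover only genes that passed the filter on low TPM, and a gene may pass through the libraries where it is high.

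**Figure D4:**
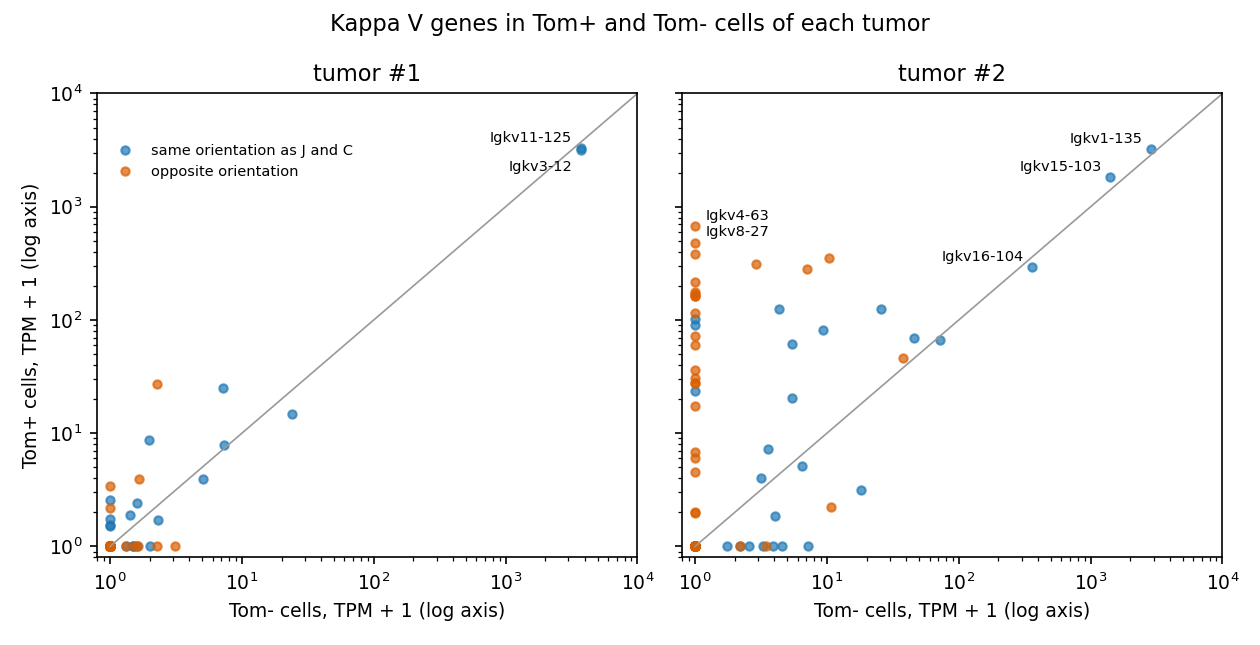
TPM + 1 of each Igkv gene in Tom+ cells against its TPM + 1 in Tom- cells of the same tumor, on log axes, 1 panel per tumor, in blue for genes in the orientation of the J segments and in orange for the opposite one, with a gray line of equal values and genes listed at 0 drawn at 1. In tumor #2, 36 of the 95 genes outside the leading 5 were higher in Tom+ cells and 12 were lower, whereas tumor #1 had 12 higher and 12 lower. The matching counts over all genes were not made, and the part of read depth in these counts was not tested.

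Between the tumors, 19 of the 27 tested Igkv genes (70.4%) differed by more than 1 on the log2 scale in the same direction in both sorts, against 14.9% of all genes tested. The filter favors such genes, because 13 of the 17 that were higher in tumor #2 were under 1 TPM in both libraries of tumor #1 and passed through tumor #2 alone. Without the filter the count was 19 of the 58 Igkv genes above 0 in any library (32.8%), against 8.65% of all such genes. The 2 that were lower in tumor #2 were Igkv11-125 and Igkv3-12. Over all genes tested, 1343 were higher and 352 lower in tumor #2, and 924 and 661 after trimmed-mean scaling, which left the Igkv counts at 17 and 2. With 1 mouse per tumor no p-value was computed. Counting all 100 genes, 23 were above 0 in both tumors, 5 in tumor #1 only and 30 in tumor #2 only, and the matching counts over all genes were not made.

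Igkc moved in the same direction as the summed Igkv level in each tumor. Igkc, the kappa constant gene, was at 5379 TPM in Tom- and 4933 TPM in Tom+ cells of tumor #1 and at 4634 TPM in Tom- and 8295 TPM in Tom+ cells of tumor #2. Summed Igkv TPM per Igkc TPM stayed within 1.06 and 1.39 in the 4 libraries. Of the J segments, Igkj1 took 46.5% (Tom-) and 48.6% (Tom+) of summed Igkj TPM in tumor #1, and Igkj5 took 52.0% (Tom-) and 50.0% (Tom+). In tumor #2, Igkj1 took 81.4% in Tom- and 62.5% in Tom+ cells, Igkj2 took 9.15% and 13.3%, and Igkj5 took 4.27% and 16.7%. Tumor #1 thus had a pair of J segments at near equal shares, as it had of V genes, but J segments are shorter than a read, so their TPM is uncertain. Of the 6 kappa partners (Igkc and the J segments), 0 were called by limma, and their median log2 fold change was 0.35. At an unadjusted p under 0.05, 1 of them, Igkj4, was higher (log2 fold change 1.46, SE 0.12), against 2.04% of all genes. Igkj4 was at 36.9 TPM (Tom-) and 99.6 TPM (Tom+) in tumor #1, and at 859 TPM (Tom-) and 2463 TPM (Tom+) in tumor #2.

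Kappa V genes outnumbered λ V genes in transcripts, while the λ constant genes were less rare. Kappa V genes made 99.8% of the summed kappa and λ V gene TPM in both sorts of tumor #1, and 97.5% in Tom- and 98.4% in Tom+ cells of tumor #2. The λ constant genes Iglc1, Iglc2 and Iglc3 summed to 651 TPM (Tom-) and 595 TPM (Tom+) in tumor #1 and to 978 TPM (Tom-) and 1215 TPM (Tom+) in tumor #2. That was 10.8% of λ and kappa constant gene TPM in both sorts of tumor #1, and 17.4% (Tom-) and 12.8% (Tom+) in tumor #2. None of the 7 tested of 9 λ genes was called, with 0 at an unadjusted p under 0.05, and their median log2 fold change was 0.052. Of 11 genes of light chain rearrangement, 10 were tested, 0 were called, 0 passed an unadjusted p under 0.05, and the median was -0.057. Rag1, a subunit of the recombinase, had 0.613 TPM (Tom-) and 1.17 TPM (Tom+) in tumor #1, against 3.61 TPM (Tom-) and 2.81 TPM (Tom+) in tumor #2. Rag2, its partner, had 0.196 TPM (Tom-) and 0.295 TPM (Tom+) in tumor #1, against 4.43 TPM (Tom-) and 2.68 TPM (Tom+) in tumor #2. Both were thus higher in both sorts of tumor #2, at low levels. Of the same list, Lig4, Dclre1c and Prkdc were also higher in both sorts of tumor #2, whereas Xrcc4, Xrcc5, Xrcc6, Hmgb1 and Hmgb2 were lower in both. Some of these differences were small. Lig4 in Tom+ cells was at 3.42 TPM in tumor #1 and 3.49 TPM in tumor #2, and Hmgb1 in Tom- cells at 641 and 627 TPM. Among the surrogate light chain genes 1 of 4 was tested, Vpreb3, which was lower at an unadjusted p under 0.05 (log2 fold change -0.56, SE 0.15). Of all genes, 2.64% were lower at that p.

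Among 14 transcription factors known to act on the kappa locus, 0 were called by limma. The 3 that were lower in Tom+ cells at an unadjusted p under 0.05 were Pou2f1, an octamer-binding factor (log2 fold change -1.10, SE 0.25), Irf8, an interferon regulatory factor (-0.52, SE 0.16), and Spib, an ETS factor (-0.46, SE 0.14), against 2.64% of all genes lower at that p. In all, 8 of the 14 were lower in both tumors and 1 was higher in both, against 29.5% and 21.6% of all genes, and their median was -0.17. Among the 8 B cell markers 0 were called, 1 was lower at an unadjusted p under 0.05, and 6 were lower in both tumors, against the same 2.64% and 29.5% of all genes.

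Plasma cell genes were given beside the V genes because Tom+ cells of tumor #2 stood apart in V gene usage and in Jchain. Not all of the other plasma cell genes stood apart there. The 8 plasma cell genes summed to 241 TPM in Tom- and 243 TPM in Tom+ cells of tumor #1 and to 168 TPM in Tom- and 373 TPM in Tom+ cells of tumor #2. Most of that difference was Jchain, the joining chain of secreted antibody, at 0.330 TPM in Tom- and 1.72 TPM in Tom+ cells of tumor #1 and at 1.24 TPM in Tom- and 209 TPM in Tom+ cells of tumor #2. The other 7 genes went in different directions. Irf4, Xbp1 and Prdm1 were at 29.4, 21.2 and 0.570 TPM in that library, each the highest of the 4 libraries, whereas Mzb1 at 80.6 TPM and Slamf7 at 31.8 TPM were each the lowest. Sdc1 was at 0.428 TPM and Tnfrsf17 at 0.390 TPM there. Both were listed at 0 in Tom- cells of tumor #2, and were at 1.95 and 0.778 TPM in Tom- cells of tumor #1. Within tumor #2, Irf4, Xbp1, Prdm1, Sdc1 and Tnfrsf17 were thus higher in Tom+ than in Tom- cells, and Mzb1 and Slamf7 were lower. In Tom- cells of tumor #2, 2 of the 8 were listed at 0, and none in the other 3 libraries. Of the 8 genes, 6 were tested and 0 were called, with 0 at an unadjusted p under 0.05, and 3 were higher in both tumors. Whether plasma cells were among the sorted cells, and any part of theirs in the broader Igkv usage, was not tested.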

How the data were processed

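RNA-seq of polyA RNA was made from sorted cells as single 60-base reads. Per the submitters' processing notes, CASAVA 1.8 and Salmon 1.9 were used with GRCm38, and the study's methods name Cutadapt for trimming of adaptors and short reads. The authors deposited 1 table of TPM per gene, whose columns each sum to 1e+06. How transcripts were summed to genes is not given in the sources used here. TPM keeps no read counts, so no count test was run, depth is unknown and no counting interval is given.

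Of 34866 identifiers, 34582 matched GENCODE M21 on GRCm38, which gave gene types and positions. Shares, the inverse Simpson index and family sums were computed in Python 3.11.15 with pandas 2.3.3. Tom+ and Tom- were compared with limma 3.58.1 in R 4.3.3 on log2(TPM + 1), with a variance trend, for genes of at least 1 TPM in at least 2 libraries, and this fit was tested on simulated data. The tumor was a block because both libraries of a tumor came from 1 mouse. Genes differing between tumors were counted, with no test. Sequences and identities were read from GENCODE transcripts with Biopython 1.88.

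Named were genes with a share of at least 2% in a library, the 3 highest per library, the 3 largest rises and falls in share with the same sign in both tumors, and the 2 genes nearest to and farthest from the J segments. Leading genes had a mean share of at least 5% in a tumor. Genes outside Igkv came from lists. Members and lists were chosen with earlier results of these data known. Alternatives were other pseudocounts, filters, scalings and indices, no block, pseudogenes added, length weighting and libraries left out. Leaving out the 5 leading genes or Igkv5-39 was added after seeing the data. The locus of the Cre knock-in is not reported here.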

Additional observations from a re-analysis of the deposited data

Results flagged for a closer look

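Several quantities moved in opposite directions between Tom+ and Tom- cells in the 2 tumors. Each tumor has 1 library per sort, so the difference between the tumors was not tested, and its cause was not tested. Values are differences of log2 ratios, Tom+ over Tom-, tumor #2 minus tumor #1. Summed Igkv TPM differed by 1.20 (-0.19 in tumor #1 and 1.01 in tumor #2) and Igkc TPM by 0.96 (-0.12 and 0.84). Summed λ V gene TPM differed by 0.73 (-0.43 and 0.31), and the summed TPM of the 5 leading genes by 0.40 (-0.20 and 0.20). Igkv TPM per Igkc TPM differed by 0.24 (-0.069 and 0.17).

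Among single genes, on log2(TPM + 1), Igkv6-15 differed by 7.95 (-1.19 in tumor #1 and 6.75 in tumor #2), Igkv14-126 by 7.37 (-0.71 and 6.66) and Igkv6-23 by 6.72 (-1.63 and 5.09). Igkv2-109 differed by 1.62 (-1.0 and 0.61), Igkv15-103 by 0.95 (-0.58 and 0.37) and Igkv16-104 by -0.91 (0.61 and -0.30). In tumor #1, Igkv6-15, Igkv6-23, Igkv2-109, Igkv15-103 and Igkv16-104 were at or below 2.10 TPM, and Igkv14-126 was at 23.1 TPM in Tom- and 13.7 TPM in Tom+ cells.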

How the results depend on the processing

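No Igkv gene was called by limma under any alternative, nor without the replicate block (0 called). The smallest adjusted p over these fits was 0.546, without the block and without the Tom+ library of tumor #1. The count at an unadjusted p under 0.05 was 3, and it was 6 with a pseudocount of 0.1, 5 with 0.5, 2 without the block or without the variance trend, and 1 to 11 without the block and with a library left out. Over all genes the block moved that count from 140 to 530. For the 15 named genes tested, 105 of 105 results kept their direction and their side of the threshold. Leaving out the block, the filter or the variance trend cannot change a log2 fold change here, so those directions were fixed in advance. No result came near the threshold (smallest adjusted p = 0.846 by limma), so the tally is no test of how stable the results are. The mean difference in effective number of genes, 2.09, was 0.0294 without tumor #2 and 4.16 without tumor #1, so it rests on tumor #2, and it was 4.75 by Shannon entropy, 1.95 to 2.10 with pseudogenes, low genes or length weighting changed, and 4.40 without the 5 leading genes. The share of the leading gene ranged from 49.5% to 50.4% in tumor #1 and from 32.5% to 58.4% in tumor #2 with a library left out. The shares of all genes differing between tumors were 14.9%, 3.7% for a difference over 2, 24.6% from Tom- and 26.3% from Tom+ libraries. Of the 27 tested Igkv genes, those differing between tumors numbered 19 and, in the same order, 15, 21 and 26. Without the filter on low TPM they were 19 of 58 (32.8%) in place of 19 of 27 (70.4%), because more genes were counted. The minus-strand share outside the leading genes was 21.7 points higher in Tom+ than in Tom- cells of tumor #1, and -1.25 points without Igkv5-39, a gene left out after seeing the data. TPM gives no depth, so genes listed at 0 may be present at a low level.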

Other observations

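The 60 Igkv pseudogenes, which cannot make a full chain, were low but not absent. They summed to 2.59 TPM in Tom- and 7.75 TPM in Tom+ cells of tumor #1 and to 72.0 TPM in Tom- and 66.8 TPM in Tom+ cells of tumor #2. That was 0.0346% and 0.118% of the summed TPM of genes and pseudogenes in tumor #1, and 1.44% and 0.671% in tumor #2. Both libraries of tumor #2 were above both of tumor #1.

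Among the genes outside the leading 5, Igkv14-111 was at a similar level in both sorts of each tumor, at 6.34 TPM in Tom- and 6.84 TPM in Tom+ cells of tumor #1 and at 70.5 TPM and 64.9 TPM in those of tumor #2. Igkv2-109, in the distal part of the locus, was at 1.01 TPM in Tom- cells and 0 in Tom+ cells of tumor #1 and at 44.6 TPM and 68.7 TPM in those of tumor #2. Without the 5 leading genes, the effective number of Igkv genes was 4.27 in Tom- and 5.53 in Tom+ cells of tumor #1 and 7.63 in Tom- and 15.2 in Tom+ cells of tumor #2, higher in the Tom+ library of both tumors. In tumor #1 these genes summed to only 52.4 TPM (Tom-) and 94.2 TPM (Tom+). Igkv5-39 (1.28 to 26.2 TPM) and Igkv3-7 (6.26 to 24.3 TPM), a close relative of the leading Igkv3-12, rose most there. The number of all Igkv genes above 0 in tumor #1 was 22 in Tom- and 18 in Tom+ cells.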
